A study of Mus musculus with 2 samples.

Results

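The transcripts of 10 C-type lectin receptors of myeloid cells, *Clec4a1*, *Clec4a3*, *Clec4b1*, *Clec4d*, *Clec4e*, *Clec4n*, *Clec7a*, *Clec12a*, *Clec10a* and *Cd209a*, were followed in CD45+ leukocytes of the mouse heart. They were taken from the count matrix by their symbols, and all 10 were found among its 27809 genes. Their levels did not enter the gates that sort the cells. The study asked how T cells act on macrophages of the heart under pressure overload. CD45+ cells were enriched from digested hearts 1 week after surgery, labelled with 5 hashtags (antibodies with a barcode that tell the groups apart), and pooled into 1 TAS-Seq library. The BD Rhapsody system that was used barcodes the RNA of each cell in a microwell.

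All mice were young adult males of the C57BL/6 background and of the same age by the study's methods. WT sham mice had a sham operation. WT TAC mice had transverse aortic constriction (TAC), in which a suture narrows the aorta and the left ventricle must pump against a raised pressure. CD3e-/- mice, which lack T cells because a chain of the T cell receptor complex is missing, had either operation. One more group of WT mice was given a CD8 antibody every few days from the day of TAC on, and it is called CD8-depleted TAC here. Each hashtag group was 1 sample, and the sources used here do not say how many hearts it held. No test between groups was therefore made. Levels are CPM, the usual unit in which the reads of a gene are divided by all reads in the cells of a group and scaled to one common total, and values are given in the order WT sham, CD3e-/- sham, WT TAC, CD3e-/- TAC, CD8-depleted TAC where no group is named. Intervals are exact 95% Poisson intervals for reads and exact 95% Clopper-Pearson intervals for shares of cells. Both cover counting error only and are too narrow, because reads are not separate molecules and cells of 1 sample are not replicates. Neither kind holds the error between hearts, so intervals that do not overlap are no test between groups.

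C-type lectin receptors are surface proteins that bind sugars, lipids and proteins of microbes and of damaged cells. Some of them activate the cell. Clec7a (Dectin-1), the receptor for beta-glucan, carries its own signalling motif, while Clec4e (Mincle), Clec4d (MCL), Clec4n (Dectin-2) and Clec4b1 (DCAR) pass their signal on through the adaptor Fcer1g to the kinase Syk and the adaptor Card9. Clec12a carries an inhibitory motif and binds crystals of uric acid, and Clec4a1 and Clec4a3 belong to the DCIR family. Clec10a binds galactose-type sugars, and Cd209a, a mouse relative of human DC-SIGN, is known from dendritic cells and monocytes that turn into them.

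After the filters 1000, 835, 1615, 919 and 894 cells were kept, 5263 in all, and no barcode was shared between groups. Their total reads were between 91899777 and 208758777 a group. Cells were gated on the CPM of single cells. A cell with at least 200 CPM of *Csf1r* and 1500 CPM of *Lyz2* entered the myeloid gate, which held 570, 484, 1088, 669 and 610 cells, 3421 in all. This gate was parted in order into cells with *Ace* (patrolling monocyte gene, 252 cells), *Ly6c2* (inflammatory monocyte gene, 441 cells), *Lyve1* (resident macrophage gene, 205 cells), *Ccr2* (1210 cells) and a remainder with low *Ccr2* (1313 cells). Cells with *Flt3* (279 cells) or *Xcr1* (156 cells), genes of dendritic cells, and cells with *Cd79a* and little *Lyz2* (457 B cells) had been set aside first. All 6 macrophage and monocyte markers were detected in the myeloid gate, and their summed level was between 15096 and 16975 CPM in the 5 groups. *Csf1r* and *Lyz2* are among these markers and define the gate, so this sum is no independent check of it. Median reads per cell of the gate rose from 75722 in WT sham to 128161 in CD3e-/- TAC, so shares of cells were taken after thinning to 38936 reads. Shallower cells were left out of these shares, namely 90, 62, 101, 44 and 45 cells of the myeloid gate and 38, 44, 33, 22 and 22 B cells, which is more of WT sham than of the TAC groups. *Cd3e* itself had 1702, 343, 2264, 768 and 1484 reads over all kept cells, and its partner *Cd3g* had 4364, 51, 3663, 9 and 2451 reads. *Cd8a* stood at 6.55 CPM in CD8-depleted TAC and at 7.40 CPM in WT TAC, and *Cd8b1* at 7.74 and 10.8 CPM. The loss of CD8+ cells is thus not visible as a clear fall of their genes, and this group is named by its label only.

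One step of the authors' processing bears on every value below. The matrix had been corrected by the distribution of reads, as its name tells, and 9 of the 10 members had no cell with 1 to 5 reads. The lowest count above 0 was 6 reads for *Clec4a1*, *Clec4a3*, *Clec4b1*, *Clec4d*, *Clec4e*, *Clec4n* and *Clec10a*, 8 reads for *Clec7a* and 19 reads for *Cd209a*. *Clec12a* alone kept counts down to 1 read, and 20.6% of its cells with a read had 5 or fewer. A value of 0 is therefore a level under the limit of the correction and not a proof of absence, and shares of cells cannot be set side by side for different genes. For these 9 members the limit acted on the full reads of a cell, before thinning. Thinned shares can thus still differ with depth, between groups and between myeloid cells and B cells.

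Of the 10 members 8 lie on mouse chromosome 6. The 6 *Clec4* genes stand together between chr6:122921848-123289871 (GRCm38.p6), in the order *Clec4a1*, *Clec4a3*, *Clec4b1*, *Clec4n*, *Clec4d* and *Clec4e*. *Clec12a* and *Clec7a* stand apart from them between chr6:129349783-129472785. *Clec10a* is at chr11:70166623-70170836 and *Cd209a* at chr8:3743395-3748984. *Clec4a1*, *Clec4a3* and *Clec4b1* are close relatives, as are *Cd209a* and the other *Cd209* genes, and how reads shared by relatives were counted is not given in the sources used here. Their values are uncertain to that degree.

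The 250 bases before the start of 4 members are shown here because their levels moved most between groups, *Clec4d* and *Clec4e* to higher and *Clec4b1* and *Cd209a* to lower values after TAC. The sequences are from RefSeq (GRCm38.p6), 5′ to 3′ on the strand of the gene, and capitals mark the motifs that were found. *Clec4d* is from chr6:123261857-123262106 (+), *Clec4e* from chr6:123289872-123290121 (-), *Clec4b1* from chr6:123049712-123049961 (+) and *Cd209a* from chr8:3748985-3749234 (-).
Clec4d: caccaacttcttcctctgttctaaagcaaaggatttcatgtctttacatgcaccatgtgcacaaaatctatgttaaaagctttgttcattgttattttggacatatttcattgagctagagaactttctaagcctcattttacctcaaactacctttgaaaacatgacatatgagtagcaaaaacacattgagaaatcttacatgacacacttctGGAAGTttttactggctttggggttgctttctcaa
Clec4e: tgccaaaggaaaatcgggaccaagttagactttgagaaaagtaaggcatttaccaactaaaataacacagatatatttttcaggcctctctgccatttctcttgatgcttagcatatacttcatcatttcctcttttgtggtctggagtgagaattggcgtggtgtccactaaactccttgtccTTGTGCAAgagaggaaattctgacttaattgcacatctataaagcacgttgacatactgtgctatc
Clec4b1: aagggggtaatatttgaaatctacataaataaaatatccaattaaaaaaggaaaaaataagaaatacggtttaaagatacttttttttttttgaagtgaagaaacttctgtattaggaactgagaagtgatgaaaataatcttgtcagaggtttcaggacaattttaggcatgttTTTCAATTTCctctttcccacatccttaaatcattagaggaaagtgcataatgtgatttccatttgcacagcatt
Cd209a: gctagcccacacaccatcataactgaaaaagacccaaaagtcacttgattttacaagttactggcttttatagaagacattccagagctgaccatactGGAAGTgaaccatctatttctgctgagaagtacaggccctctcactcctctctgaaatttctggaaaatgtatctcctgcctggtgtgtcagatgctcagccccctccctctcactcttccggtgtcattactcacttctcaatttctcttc

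On either strand 6 motifs were searched in the same window of 32851 RefSeq promoters, and 8 of the 10 members had an entry (*Clec4a3* and *Clec7a* with more than 1 start). The ETS core GGAAGT, which was present in 19.7% of all promoters, was found in *Clec4d* and *Cd209a*. The longer PU.1 motif GAGGAAGT, which holds the ETS core, was found in 2.44% of all promoters and in 0 members. A C/EBP motif TTNNGCAA (9.56% of all) was found in *Clec4e* and *Clec12a*. The IRF motif, a pair of GAAA elements set 2 bases apart (2.98% of all), was found in *Clec4b1* on the other strand, where the printed letters are its reverse complement. An AP-1 motif TGANTCA (6.75% of all) was found in *Clec12a*, and the CRE motif TGACGTCA (1.55% of all) in 0 members. *Clec4d* and *Clec4e* shared no motif of these 6. A match is a description of the letters and no evidence of binding.

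The members differed in how they were spread over the gated classes, and some shared the class in which they were highest. Classes with under 20 cells in a group gave no level there, which left out the *Lyve1* and *Xcr1* classes of CD3e-/- TAC. *Clec4a3* was highest in the *Ace* class in all 5 groups, at 814, 538, 563, 770 and 709 CPM. The *Ly6c2* class followed with 510, 450, 414, 666 and 499 CPM and was lower than the *Ace* class within every group, although the ranges over the groups overlap. In the *Lyve1* class *Clec4a3* was between 135 and 254 CPM. *Clec4a1* had a like order, with 492 to 545 CPM in the *Ace* class and 294 to 552 CPM in the *Ly6c2* class, and these classes changed places between groups. Both genes were under 24 CPM in the *Xcr1* class of the 4 groups with a value. In CD3e-/- TAC, which had 19 cells of this class, 5 and 6 cells had a read of *Clec4a1* and *Clec4a3*.

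*Clec4e*, the receptor Mincle, was highest in the monocyte classes. It stood at 246, 229, 264, 145 and 198 CPM in the *Ly6c2* class and at 165, 340, 212, 245 and 181 CPM in the *Ace* class. These ranges overlap, and both lie above the ranges of the *Ccr2*-low class, 3.01 to 137 CPM, and of the *Ccr2* class, 27.2 to 75.3 CPM. Of all *Clec4e* reads 28.4% were in the *Ly6c2* class and 17.9% in the *Ace* class, beside 23.3% in the *Ccr2*-low class and 19.7% in the *Ccr2* class, which hold more cells. In the *Lyve1* class *Clec4e* was at 0 in 3 of the 4 groups with a value and at 5.74 CPM in WT TAC. In CD3e-/- TAC, with 17 cells, 4 of the 16 thinned cells had a read. *Clec4d*, its neighbour on the chromosome, whose protein can pair with Clec4e, was highest in the *Ccr2*-low class (18.2, 76.8, 102, 175 and 135 CPM) or the *Ly6c2* class (38.8, 132, 125, 86.5 and 101 CPM), depending on the group. *Clec4n*, the receptor Dectin-2, was highest in the *Ccr2*-low class in 4 of 5 groups, with 99.1, 248, 248, 217 and 235 CPM. WT sham was the exception, with 104 CPM in the *Ly6c2* class.

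*Clec7a* and *Clec12a* were spread over all myeloid classes. Class medians of *Clec7a* over the groups were between 420 and 782 CPM within the myeloid gate, 337 CPM in the *Flt3* class and 16.5 CPM in the *Xcr1* class. *Clec12a* had class medians between 402 and 513 CPM in the myeloid gate and stayed at 262 to 305 CPM in the *Xcr1* class, where *Clec7a* was nearly lacking. Among thinned B cells between 20.8% and 33.3% had a read of *Clec12a*, against 86.7% to 88.6% of the myeloid gate, and median reads before thinning were 46934 in B cells and 75722 or more in the myeloid gate. The low counts that only *Clec12a* kept fall into this share. With 6 or more reads required, 2.86% to 9.89% of the unthinned B cells and 72.7% to 81.2% of the myeloid cells were positive, and the myeloid level hardly moved, from 476.2 to 472.7 CPM in WT sham.

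*Clec10a* and *Cd209a* were genes of the *Flt3* class in all 5 groups. *Cd209a* stood there at 1422, 1656, 1135, 1186 and 796 CPM and in the *Ccr2* class at 282, 213, 120, 44.2 and 117 CPM, and these ranges do not overlap. In the *Lyve1* class it was at 0 in every group with a value. B cells, which should lack it, had 71.5, 137, 66.5, 0 and 179 CPM from 0 to 5 cells a group, so low levels of *Cd209a* are within what cells without it can show. *Clec10a* stood at 281, 288, 251, 421 and 208 CPM in the *Flt3* class and at no more than 75.0 CPM in any class of the myeloid gate. *Clec4b1* was shared by the *Flt3* class (198, 293, 199, 133 and 222 CPM) and the *Ccr2* class (267, 311, 179, 116 and 171 CPM), whose ranges overlap. All other classes of the myeloid gate had lower *Clec4b1* than the *Ccr2* class in every group. After thinning, 47.7% to 82.8% of the *Flt3* class had a read of *Cd209a* and 40.9% to 65.5% a read of *Clec10a*, while in the *Xcr1* class these shares were at most 5.0% and 10.5%.

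**Figure D1:**
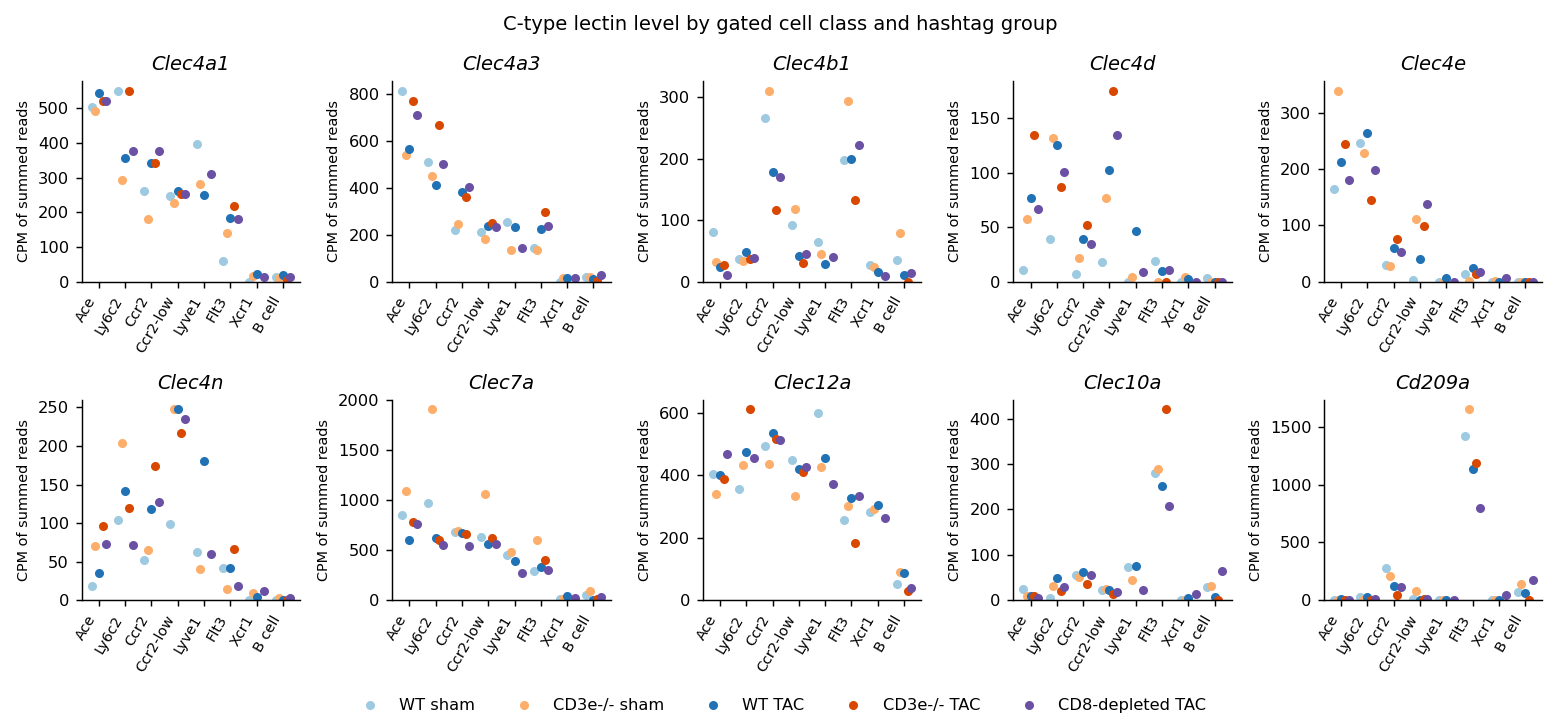
Level of each C-type lectin in CPM of summed reads (vertical axis, linear and scaled for each gene) by gated cell class (horizontal axis), with 1 point per hashtag group and no point for a class with under 20 cells in a group. *Clec4a3* falls from the *Ace* class to the others, *Clec4e* is highest in the monocyte classes, *Clec4n* leads in the *Ccr2*-low class and *Clec10a* and *Cd209a* stand high in the *Flt3* class.

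To find genes with the same pattern, levels over 43 values of classes by groups with at least 20 cells were compared with those of 11098 genes by Pearson's r of log2 CPM with 10 CPM added. These values share 1 library and the groups share classes, so r is a description. The classes were those of the myeloid gate and also the *Flt3*, *Xcr1*, B cell and ungated cells. A high r thus also holds the difference between myeloid and other cells. *Clec4a1* and *Clec4a3* were both closest to *Igsf6* (r = 0.964 and 0.966) and *Fyb*, a signalling adaptor of leukocytes. *Clec4d* was closest to *Cstb* (0.851), *Cfb* and *Il1rn*, the antagonist of the interleukin-1 receptor. *Clec4e* was closest to *Thbs1* (0.935), *Msrb1* and *Klra2*. *Clec4n* was closest to 3 genes of lysosomes, *Atp6v0c* (0.948), *Ctsz* and *Ctsd*. *Clec7a* was closest to *Itgam* (0.942), the gene of CD11b, and to *Ccl9* and *Lilrb4a*, and *Clec12a* to *Asah1* (0.916), *Cd68* and *Aif1*. *Clec4b1* was closest to *Tnip3* (0.846), *Hr* and *Ank*. *Clec10a* and *Cd209a* were both closest to another gene of the *Cd209* family, *Cd209c* (0.787 and 0.824). Reads shared by *Cd209a* and *Cd209c* cannot be told apart here.

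Within the myeloid gate pressure overload was read from WT TAC against WT sham. *Clec4d*, *Clec4e* and *Clec4n*, 3 of the activating receptors and neighbours on chromosome 6, were higher after TAC. Their levels in WT sham and WT TAC were 12.6 (11.7 to 13.6) and 73.4 (72.0 to 74.9) CPM for *Clec4d*, 31.9 (30.4 to 33.5) and 89.3 (87.8 to 90.9) CPM for *Clec4e*, and 73.6 (71.3 to 75.9) and 159 (157 to 162) CPM for *Clec4n*. With 10 CPM added to both levels the log2 ratios were 1.88, 1.24 and 1.02. *Clec4n* only just reached 2-fold, and it stayed under it with halved or doubled gate limits, with the mean of single-cell CPM and without the deepest 1% of cells. Of the 10 members 3 were past 2-fold higher and 0 past 2-fold lower, where a gene counts if it has 20 CPM in 1 of the groups. Among all 7014 genes with this level 1.14% were past 2-fold higher and 0.713% lower. The median log2 ratio of the members was 0.13, beside 0.03 for all genes. *Clec4b1* (148 to 101 CPM) and *Cd209a* (108 to 59.0 CPM) were lower without passing 2-fold. *Clec4b1* is an activating receptor that comes before *Clec4n* in the order of the members on chromosome 6. *Clec7a*, which also activates, had a log2 ratio of -0.09. *Clec4a1*, *Clec4a3*, *Clec7a*, *Clec12a* and *Clec10a* had log2 ratios between -0.09 and 0.38.

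Cells with a read of *Clec4d*, *Clec4e* or *Clec4n* were more frequent as well. After thinning, the share for *Clec4d* was 4.792% (3.06 to 7.10) of 480 WT sham cells and 20.3% (17.8 to 22.9) of 987 WT TAC cells. For *Clec4e* it was 8.13% and 20.5%, and for *Clec4n* 20.4% and 35.2%. In B cells thinned in the same way 0 cells of 61 and 58 had a read of any of these 3 genes in WT sham and WT TAC. The intervals of the myeloid shares do not overlap for any of the 3 genes. Before thinning the shares of *Clec4d* were 4.04% and 19.0%.

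Since the mix of classes shifted, with the *Ly6c2* class rising from 3.51% to 11.9% of the myeloid gate and the *Lyve1* class falling from 12.98% to 4.78%, levels were also read within classes. *Clec4d* was higher in WT TAC in all 5 classes, from 10.4 to 76.6 CPM in the *Ace* class, from 38.8 to 125 CPM in the *Ly6c2* class, from 7.31 to 39.4 CPM in the *Ccr2* class, from 18.2 to 102 CPM in the *Ccr2*-low class and from 0 to 46.1 CPM in the *Lyve1* class. The WT sham levels of *Clec4d* rested on few cells. After thinning, 1 of 23, 5 of 20, 7 of 145, 10 of 228 and 0 of 64 WT sham cells of these classes, in the same order, had a read. *Clec4n* was also higher in 5 of 5 classes, and in the *Ccr2*-low class it went from 99.1 to 248 CPM. With an equal weight for each class the log2 ratios were 1.82 for *Clec4d* and 1.00 for *Clec4n*, close to those of the whole gate. *Clec4e* was higher in 5 of 5 classes too, but in the *Lyve1* class only from 0 to 5.74 CPM. There 1 of 48 thinned WT TAC cells had a read of *Clec4e*. The level of *Clec4e* in the *Ly6c2* class was nearly the same in WT sham and WT TAC (246 and 264 CPM). Its log2 ratio fell from 1.24 to 0.36 with equal weights, which leaves it within 2-fold. In the *Ccr2*-low class *Clec4e* went from 3.01 to 41.1 CPM, and 4 of 291 and 27 of 383 cells had a read. The summed neutrophil markers of this class went from 52.1 to 295 CPM and the 4 mast cell markers from 18.7 to 386 CPM, and their part in these changes was not tested.

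The sham groups held few cells in some classes, and many genes were past 2-fold there. In the *Ace* class (24 and 74 cells) 8.41% of genes were past 2-fold higher and 4.84% lower in WT TAC, with 1 member each, *Clec4d* and *Clec4b1* (80.9 and 23.4 CPM). In the *Ly6c2* class (20 and 130 cells) 10.7% of genes were higher and 7.02% lower, with 2 members higher and 0 lower. These were *Clec4d* and *Clec10a*, whose 5.36 CPM in WT sham came from 1 cell. The larger classes had a lower background. In the *Ccr2* class 1.22% of genes were higher and 0.878% lower, with 2 members higher (*Clec4d* and *Clec4n*) and 1 lower (*Cd209a*, 282 and 120 CPM). In the *Ccr2*-low class 1.94% of genes were higher and 1.12% lower, with 3 members higher (*Clec4d*, *Clec4e* and *Clec4n*) and 0 lower. The *Lyve1* class (74 and 52 cells) had 2 members higher, *Clec4d* and *Clec4n* (62.5 and 181 CPM), and 0 lower, where 4.1% and 5.28% of genes were.

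**Figure D2:**
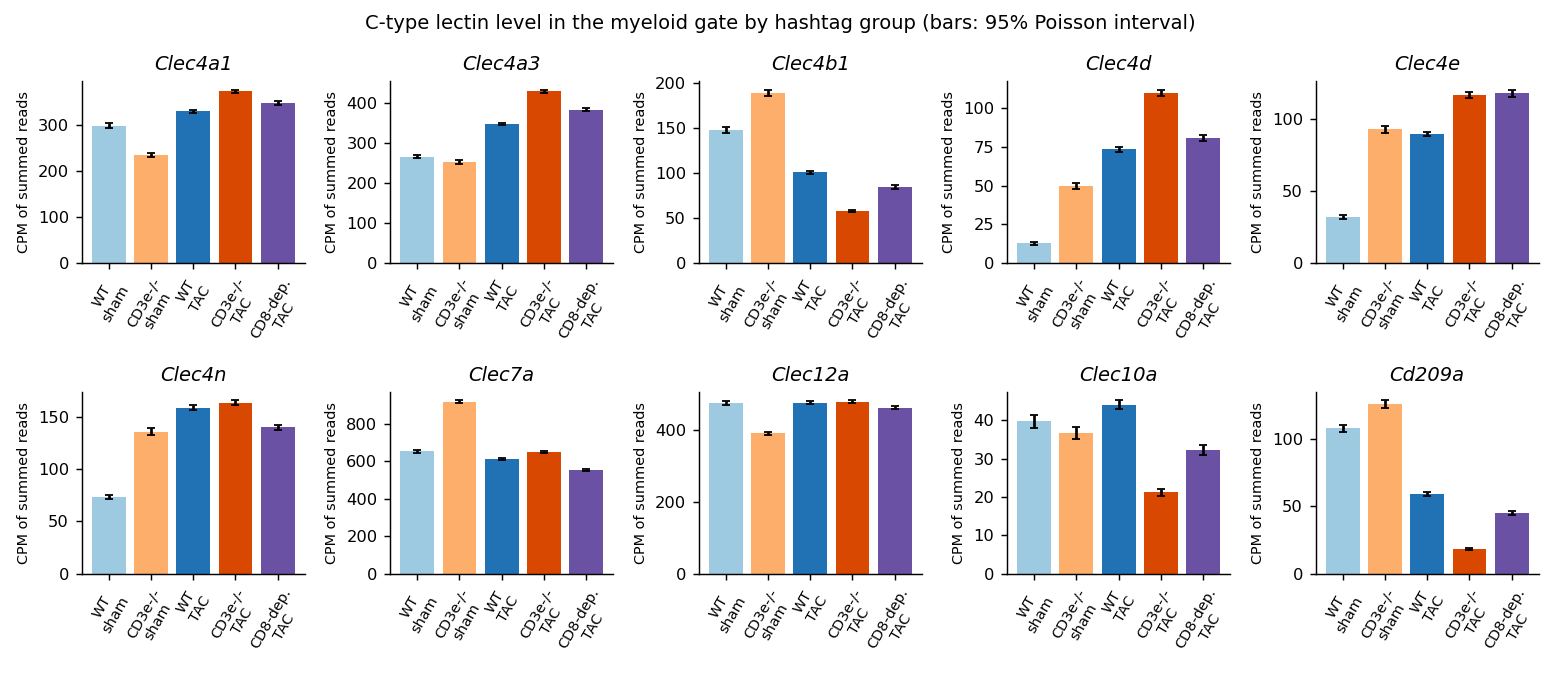
Level of each member in the myeloid gate in CPM of summed reads (vertical axis from 0, scaled for each gene) for the 5 hashtag groups, with 95% Poisson intervals of the reads. *Clec4d*, *Clec4e* and *Clec4n* are lowest in WT sham, *Clec4b1* and *Cd209a* are lowest in CD3e-/- TAC, and *Clec12a* differs little between groups.

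TAC was also compared with sham in the hearts without T cells. In CD3e-/- sham and CD3e-/- TAC *Clec4b1* stood at 189 (186 to 193) and 57.5 (56.0 to 58.9) CPM, a log2 ratio of -1.56. *Cd209a* stood at 126 (123 to 129) and 18.3 (17.5 to 19.1) CPM, a log2 ratio of -2.26. *Clec4d* was higher, at 49.7 and 110 CPM, with a log2 ratio of 1.01 that only just reached 2-fold. Hence 1 member was past 2-fold higher and 2 lower, where 1.93% and 1.21% of 6942 genes were. The median log2 ratio was 0.27 for the members and 0.05 for all genes. *Clec4e* (92.7 and 116 CPM) and *Clec4n* (136 and 164 CPM) had ratios of 0.30 and 0.25, from levels in CD3e-/- sham that were already above those of WT sham. *Clec4a1* and *Clec4a3* were at 0.64 and 0.75, and *Clec7a* and *Clec10a* at -0.49 and -0.58.

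The fall of *Clec4b1* was present in the *Ccr2* class (311 and 116 CPM), the *Ccr2*-low class (117 and 30.1 CPM) and the *Flt3* class (293 and 133 CPM), and its share of thinned cells in the *Ccr2* class went from 64.7% (57.0 to 71.9) to 37.4% (30.9 to 44.4). In the *Ace* and *Ly6c2* classes, where its level was low, it was at 31.9 and 27.3 CPM and at 32.8 and 36.1 CPM. With equal weights over the 4 classes that had enough cells its log2 ratio was -1.10. In the *Ccr2* class as a whole 2 members were past 2-fold higher, *Clec4e* (27.2 and 75.3 CPM) and *Clec4n* (64.5 and 174 CPM), and 2 lower, where 2.21% and 1.61% of genes were. In the *Ccr2*-low class *Clec4d* (76.8 and 175 CPM) was the 1 member higher and the same 2 were lower, *Clec4b1* and *Cd209a*, where 2.58% and 2.18% of genes were. The *Ace* class had 1 member higher, *Clec4d* (57.8 and 134 CPM), and 0 lower, where 6.61% and 3.56% of genes were. The *Ly6c2* class had 0 higher and 1 lower, *Clec7a* (1912 and 603 CPM), where 7.68% and 4.88% were. *Cd209a* rested on few cells. Only 34 of 484 cells in CD3e-/- sham and 10 of 669 cells in CD3e-/- TAC had a read, and 1 cell held 55.1% of its reads in CD3e-/- TAC. In the *Ccr2* class 15.9% (10.7 to 22.3) and 2.37% (0.77 to 5.44) of thinned cells had a read, against 6.41% and 0% of thinned B cells. Over the whole myeloid gate the share of 7.58% in CD3e-/- sham did not exceed that of the B cells beyond their intervals. In the *Flt3* class, where *Cd209a* is high, its level was 1656 and 1186 CPM in CD3e-/- sham and CD3e-/- TAC, within 2-fold.

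The higher *Clec4d* in CD3e-/- TAC had a narrower base. With equal weights per class its log2 ratio was 0.57, it was lower in the *Ly6c2* class (132 and 86.5 CPM), and it stayed under 2-fold when the deepest 1% of cells were left out. Cells with 100 or more CPM of *Prg4*, 18 of 669 cells in CD3e-/- TAC and 1 of 484 in CD3e-/- sham, held 29.9% of its reads in CD3e-/- TAC, and without them *Clec4d* was at 82.6 CPM. This alternative was chosen after the data had been seen.

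**Figure D3:**
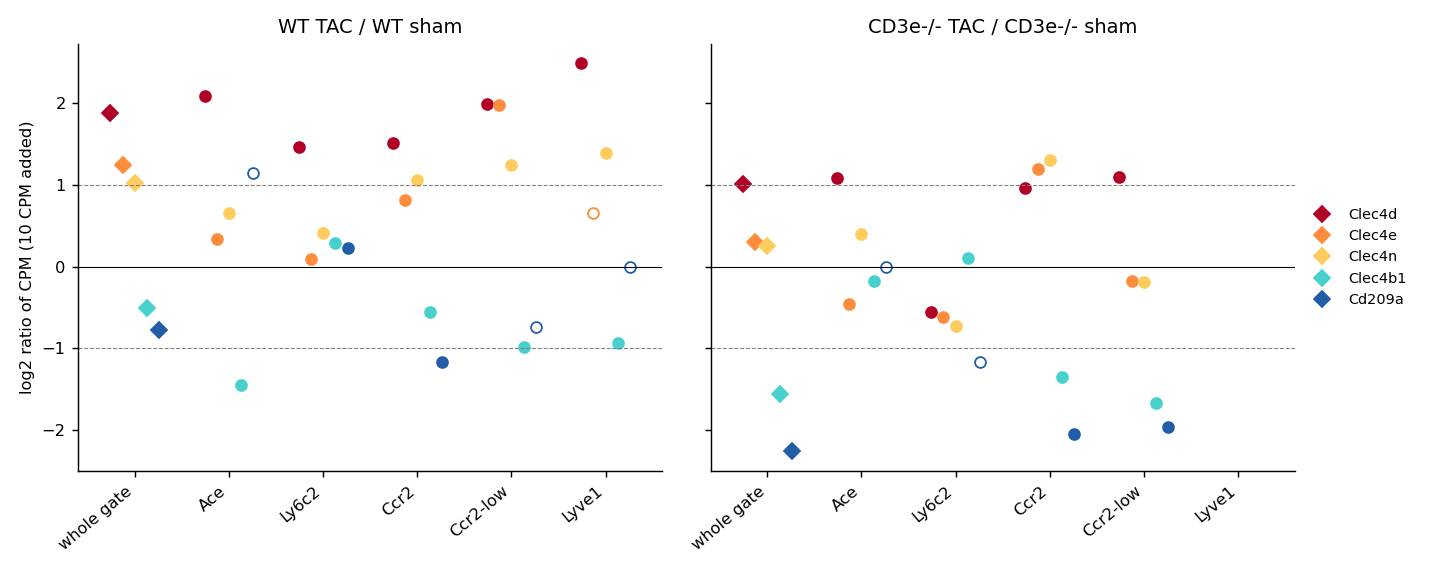
Log2 ratio of CPM with 10 CPM added (vertical axis) of TAC to sham in WT (left) and CD3e-/- (right) for 5 members in the whole myeloid gate (diamonds) and in its classes (circles), open where both levels were under 20 CPM, with dashed lines at 2-fold. In WT *Clec4d* is past the line in all 5 classes, and in CD3e-/- *Clec4b1* and *Cd209a* are past it in the *Ccr2* and *Ccr2*-low classes, while the *Lyve1* class of CD3e-/- had too few cells.

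Sham hearts of the genotypes were compared next. *Clec4d* was at 49.7 CPM in CD3e-/- sham and 12.6 CPM in WT sham, and *Clec4e* at 92.7 and 31.9 CPM, with log2 ratios of 1.40 and 1.29. These 2 members were past 2-fold higher, where 0.361% of 6917 genes were, and 0 members were past 2-fold lower, where 0.202% of genes were. *Clec4n* (136 and 73.6 CPM) and *Clec7a* (917 and 652 CPM) had log2 ratios of 0.81 and 0.48. The median was 0.27 for the members and -0.02 for all genes. In the *Ccr2*-low class 4 members were past 2-fold higher, where 1.46% of genes were, and 0 lower, where 0.488% were. They were *Clec4d*, *Clec4n*, *Cd209a* (80.4 and 14.03 CPM) and *Clec4e*, which was at 112 and 3.01 CPM, but only 16 of 210 and 4 of 291 cells had a read of *Clec4e* and 3 cells in each group a read of *Cd209a*. The summed neutrophil markers of this class were at 283 and 52.1 CPM and *Chil3* at 319.5 and 57.0 CPM, and their part was not tested. The *Ccr2* class (0.324% and 0.25% of genes) and the *Lyve1* class (5.18% and 9.35%) had 0 members past 2-fold in either direction. In the *Ace* class, where 9.24% and 9.08% of genes were past 2-fold, 2 members were higher (*Clec4d* and *Clec4n*) and 1 lower (*Clec4b1*). In the *Ly6c2* class, where 11.9% and 10.9% were, 2 were higher (*Clec4d* and *Clec10a*) and 0 lower. *Clec4d* was higher in CD3e-/- sham in 5 of 5 classes and had a log2 ratio of 1.46 with equal weights. In the *Lyve1* class it was only at 4.46 and 0 CPM, with a read in 1 of 28 thinned CD3e-/- sham cells. In the *Ace* class 5 of 33 thinned CD3e-/- sham cells and 1 of 23 thinned WT sham cells had a read of *Clec4d*. *Clec4e* was higher in 2 of 5 classes and reached only 0.62. Shares of thinned cells were 9.72% (7.06 to 12.95) and 4.792% (3.06 to 7.10) for *Clec4d*, whose intervals just overlap, and 15.2% (11.9 to 19.0) and 8.13% (5.84 to 10.9) for *Clec4e*, whose intervals do not.

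The groups with and without T cells were then compared after TAC. In CD3e-/- TAC against WT TAC 0 members were past 2-fold higher and 1 was lower, where 0.405% and 0.232% of 6907 genes were. That member was *Cd209a*, with 18.3 and 59.0 CPM and a log2 ratio of -1.28, again from 10 of 669 and 32 of 1088 cells. *Clec4b1* (57.5 and 101 CPM) and *Clec10a* (21.2 and 44.1 CPM) were lower with log2 ratios of -0.72 and -0.79. *Clec4d* was at 110 and 73.4 CPM, a log2 ratio of 0.53, which was 0.17 without the cells with *Prg4*. More cells of CD3e-/- TAC had a read of *Clec4e*, 31.8% (28.2 to 35.7) against 20.5% (18.0 to 23.1), and of *Clec4n*, 46.6% (42.6 to 50.6) against 35.2% (32.2 to 38.2). The level of *Clec4n* was nearly the same, 164 and 159 CPM. Within the *Ccr2*-low class 1 member, *Clec4e* (98.7 and 41.1 CPM), was past 2-fold higher and 0 lower, where 1.01% and 0.336% of genes were, and 1 cell held 33.5% of its reads in CD3e-/- TAC. *Cd209a* was the 1 member lower, with 0 higher, in the *Ccr2* class (44.2 and 120 CPM), where 0.158% of genes were lower and 0.115% higher, and in the *Ly6c2* class (0 and 30.3 CPM, from 0 of 141 and 4 of 130 cells), where 0.455% were lower and 0.529% higher. The *Ace* class had 1 member higher, *Clec4n* (96.3 and 34.7 CPM), and 0 lower, where 2.02% and 1.14% of genes were. In the *Ccr2* class 50.7% (43.8 to 57.6) and 29.3% (25.0 to 34.0) of thinned cells had a read of *Clec4n*.

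The group labelled CD8-depleted TAC was compared with WT TAC. In the myeloid gate 0 members were past 2-fold in either direction, where 0.101% of 6911 genes were higher and 0.145% lower. The log2 ratios were between -0.35 for *Clec10a* (32.3 and 44.1 CPM) and 0.36 for *Clec4e* (118 and 89.3 CPM), and the median was -0.09, beside 0.00 for all genes. *Cd209a* was at 44.8 and 59.0 CPM, and 1 cell held 41.04% of its reads in the group labelled CD8-depleted TAC. *Clec12a* was at 464 and 477 CPM. Differences past 2-fold were found within classes. In the *Ccr2*-low class *Clec4e* (137 and 41.1 CPM, in 23 of 217 and 27 of 383 cells) was the 1 member past 2-fold higher and 0 were lower, where 0.456% and 0.276% of genes were. The 6 neutrophil markers of that class summed to 543 and 295 CPM, and their part in this was not tested. The *Lyve1* class (31 and 52 cells) had 0 members higher and 3 lower, *Clec4d* (9.30 and 46.1 CPM), *Clec4n* (59.5 and 181 CPM) and *Clec10a* (21.4 and 75.0 CPM), where 7.39% and 6.63% of genes were. The *Ly6c2* class had 0 higher and 1 lower, *Cd209a* (6.98 and 30.3 CPM, from 2 of 126 and 4 of 130 cells), where 0.281% and 0.31% of genes were. The *Ace* class (3.53% and 2.75% of genes) and the *Ccr2* class (0.0723% and 0.0434%) had 0 members past 2-fold.

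In the *Flt3* class, outside the myeloid gate, the groups held 33 to 115 cells. WT TAC against WT sham had 1 member past 2-fold higher, *Clec4a1* (184 and 58.9 CPM), and 0 lower, where 5.48% and 1.89% of genes were. CD3e-/- TAC against CD3e-/- sham had 2 higher (*Clec4a3* and *Clec4n*) and 1 lower (*Clec4b1*), where 10.4% and 5.97% were. CD3e-/- sham against WT sham had 2 higher (*Clec4a1* and *Clec7a*) and 1 lower (*Clec4n*), where 5.53% and 6.88% were. CD3e-/- TAC (1.7% and 3.95%) and CD8-depleted TAC (1.4% and 2.64%) against WT TAC had 0 members past 2-fold. Levels of *Cd209a* and *Clec10a*, the genes that lead in this class, stayed within 2-fold in all 5 comparisons.

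The 5 comparisons are not independent, because WT TAC enters 3 of them and every other group but CD8-depleted TAC 2.

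**Figure D4:**
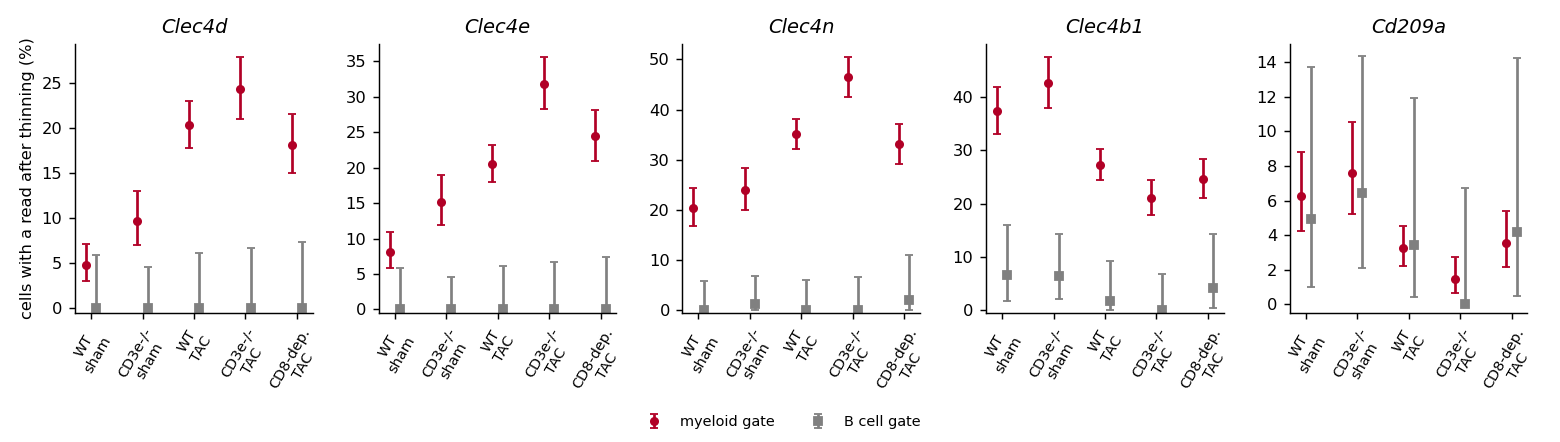
Share of cells with a read after thinning to 38936 reads (vertical axis, percent, scaled for each gene) in the myeloid gate (circles) and in B cells (squares) of each hashtag group, with 95% Clopper-Pearson intervals. The myeloid shares of *Clec4d* are 4.792%, 9.72%, 20.3%, 24.3% and 18.1% against 0% of B cells, while those of *Cd209a* lie within the intervals of the B cells.

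Other cell types and states moved along with some of these values. The summed level of the 6 neutrophil markers in the myeloid gate, all of them detected, was 55.4, 142, 154, 136 and 234 CPM, so it was lowest in WT sham as *Clec4d* and *Clec4e* were. *S100a8*, *S100a9* and *Retnlg* were at 0 in WT sham. Cells with 100 or more CPM of *S100a8* or *S100a9* numbered 0, 1, 8, 14 and 6, and without them *Clec4d* was at 12.6, 46.1, 72.2, 99.8 and 78.5 CPM and *Clec4e* at 31.9, 90.1, 88.6, 105 and 117 CPM. The log2 ratios of WT TAC to WT sham were then nearly as large as before, while *Clec4d* in CD3e-/- TAC was no longer past 2-fold. The 7 genes of the dissociation response, such as *Fos*, *Jun* and *Hspa1a*, which rise while tissue is digested, summed to 12717, 11086, 6305, 5389 and 6481 CPM, about as high in both sham groups and lower in all TAC groups. Their part in the differences of the members was not tested. The 4 mast cell markers summed to 19.7, 20.4, 137, 16.5 and 18.6 CPM, so WT TAC, which enters 3 of the comparisons, stood apart. Summed T cell markers in the gate were at most 18.6 CPM and summed fibroblast markers at most 53.3 CPM.

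**Figure D5:**
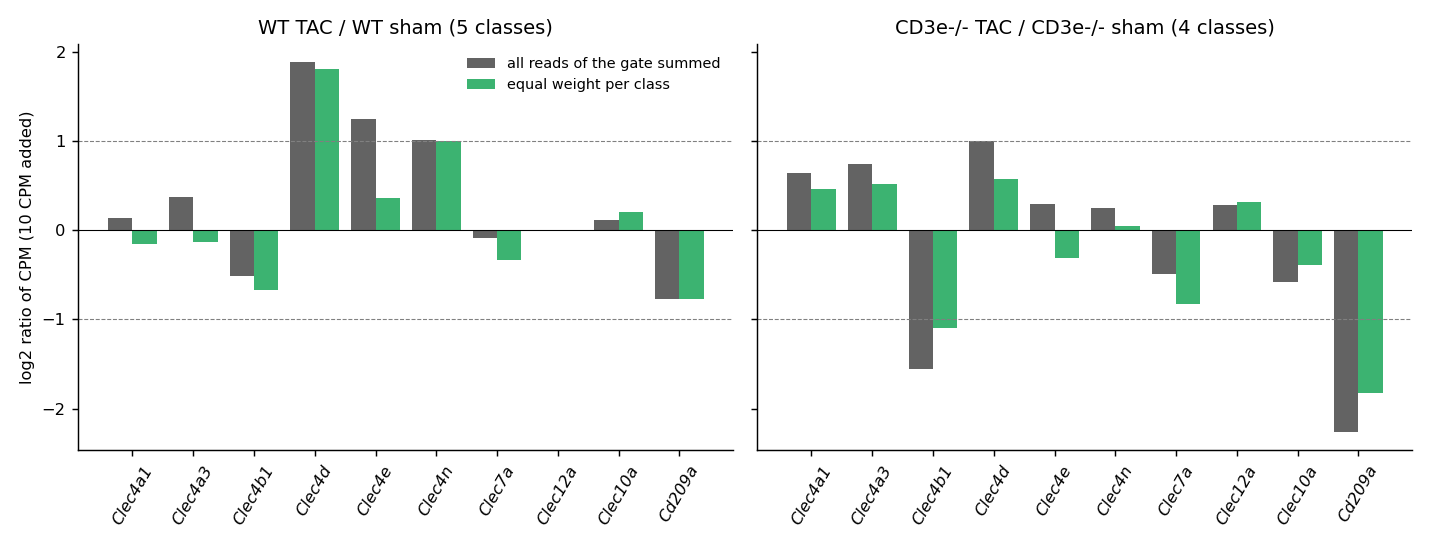
Log2 ratio of TAC to sham (vertical axis, CPM with 10 CPM added) of each member in WT (left) and CD3e-/- (right), for all reads of the myeloid gate summed (grey) and for the mean of the class levels with equal weight (green), with dashed lines at 2-fold. In WT *Clec4d* (1.88 and 1.82) and *Clec4n* (1.02 and 1.00) hardly move, while *Clec4e* falls from 1.24 to 0.36.

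Single cells held these receptors in combinations. Within the myeloid gate Pearson's r of log2 CPM with 10 CPM added was computed over the cells of each group, as a description of sparse counts. The pair with the highest median r was *Clec4d* and *Clec4e*, at 0.086, 0.571, 0.406, 0.318 and 0.476. Among cells with a read of *Clec4d* 21.7%, 74.4%, 47.8%, 57.1% and 61.3% also had a read of *Clec4e*, and among cells without one 6.76%, 8.16%, 12.3%, 22.2% and 15.5% did. WT sham, with 23 cells that had *Clec4d*, was the lowest. *Clec4n* was found in 52.8% to 74.4% of the cells with *Clec4d* and in 16.6% to 40.6% of those without it. *Clec4a1* and *Clec4a3* had an r of 0.13 to 0.40, and *Clec10a* and *Cd209a* of 0.17 to 0.34. Depth differs between cells and enters each of these values.

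The machinery downstream of the receptors moved little in the myeloid gate. Of 12 listed genes of activating signalling, with the adaptors *Fcer1g*, *Tyrobp* and *Card9* and the kinase *Syk*, 11 had 20 CPM, and 0 were past 2-fold in any of the 5 comparisons. In WT TAC against WT sham their median log2 ratio was 0.20, and that of *Syk* was -0.11. The 4 phosphatases that act for inhibitory receptors, such as *Ptpn6* and *Inpp5d*, had 0 genes past 2-fold and a median of -0.02. Target genes of the Syk-Card9 axis had a median below 0 in both comparisons of TAC with sham, but not in all 5 comparisons. In CD3e-/- sham against WT sham their median was 0.503, beside -0.02 for all genes, with 0 of 8 genes past 2-fold. Against WT TAC it was -0.225 in CD3e-/- TAC and 0.114 in CD8-depleted TAC, with 0 genes past 2-fold. Of 12 listed cytokine and regulator genes 8 had 20 CPM in WT TAC or WT sham, with 0 past 2-fold higher, 1 lower (*Il6*, 5.67 and 22.9 CPM) and a median of -0.50. In CD3e-/- TAC against CD3e-/- sham 7 had this level, with 0 higher, 3 lower and a median of -0.92. These were the chemokine *Ccl3* (196 and 556 CPM), the cytokine *Tnf* (39.1 and 111 CPM) and *Egr2* (21.2 and 72.5 CPM), a transcription factor of the early response. The summed dissociation response above was also lower in all TAC groups, and its part in these values was not tested.

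Of 23 other C-type lectin genes that were listed 7 had 20 CPM in WT TAC or WT sham, with 0 past 2-fold higher and 1 lower. This was *Mgl2*, the closest relative of *Clec10a*, at 746 CPM in WT sham and 365 CPM in WT TAC, a log2 ratio of -1.01. In CD3e-/- sham and CD3e-/- TAC *Mgl2* was at 771 and 138 CPM, a log2 ratio of -2.40, and it was past 2-fold lower in CD3e-/- TAC than in WT TAC too. *Olr1*, the receptor for oxidized LDL, was past 2-fold higher in CD3e-/- TAC (41.3 CPM) than in CD3e-/- sham (5.58 CPM) and WT TAC (6.99 CPM). *Cd207*, the gene of langerin, was at 29.0 CPM in CD3e-/- sham and at no more than 4.60 CPM in the other 4 groups. *Mrc1*, the mannose receptor, was at 1289, 845, 806, 545 and 854 CPM and passed 2-fold in 0 comparisons.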

How the data were processed

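The authors deposited a matrix of raw counts (reads by gene and cell), after TAS-Seq, a cut at an inflection point, an error correction by the distribution of reads and the assignment of hashtags. Cutadapt 2.10, Bowtie2 2.4.2 and GRCm38 are named in the submitters' processing notes, and other steps are not given in the sources used here. Of the 5363 columns 48 were not used, 40 marked as doublets and 8 without a hashtag by the authors, and doublets within a hashtag were not removed. Hashtags were matched to groups by the deposited notes. The filter asked for 500 detected genes and allowed a share of 0.4 for mitochondrial reads.

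Gates were, in order, *Cd79a* at 500 CPM with *Lyz2* under 1500 (B cells), *Xcr1* at 100, *Flt3* at 100, then *Csf1r* at 200 with *Lyz2* at 1500 (myeloid), parted by *Ace* at 100, *Ly6c2* at 500, *Lyve1* at 100 and *Ccr2* at 1000 CPM. CPM were computed from summed reads. Log2 ratios had 10 CPM added, and a gene counted as past 2-fold among genes with 20 CPM in 1 of the 2 groups. With 1 sample a group, no test was made. Reads were thinned to the 10th percentile of the myeloid gate. Every member was named, with the 3 genes closest to it in pattern, and from each gene list those with the largest ratio in each direction, with 1 gene of the lists not reported here. Other genes of the lists (*Mrc1*, *Cd207*, *Tnf* and *Egr2*) were named after their values had been seen. The members, gates and lists were chosen with earlier results of these data known. Of the markers *Klk1* was not among the genes of the matrix. The log2 ratios and the 2-fold calls were tested on simulated Poisson counts of 2 group sums, without spread between cells. Gates, thinning, class weights and co-detection were not tested in this way. The work was done in Python 3.11.15 (pandas 2.3.3, matplotlib 3.10.9, scipy 1.17.1 and numpy 2.4.6), and TMM factors came from edgeR 4.0.16 in R 4.3.3. Alternatives were tried for the gates, cell filters, scaling, pseudocount and weights.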

Additional observations from a re-analysis of the deposited data

Results flagged for a closer look

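*Clec10a* went in opposite directions with TAC in the genotypes, and this difference was not tested, since each group was 1 sample. Its log2 ratio of TAC to sham in the myeloid gate was 0.12 in WT (44.1 and 39.7 CPM) and -0.58 in CD3e-/- (21.2 and 36.6 CPM), both within 2-fold. Over the 15 alternatives the WT value was between -0.05 and 0.33 and changed its sign in 1 of them, and the CD3e-/- value was between -0.78 and -0.28. After thinning, 12.5% (9.68 to 15.8) and 15.3% (13.1 to 17.7) of the cells of WT sham and WT TAC had a read, and 15.9% (12.5 to 19.7) and 11.2% (8.84 to 13.9) of those of CD3e-/- sham and CD3e-/- TAC, with overlapping intervals in each genotype. In the *Ccr2* class the levels were 56.0, 50.1, 61.7, 34.9 and 54.3 CPM.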

How the results depend on the processing

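Each of the 9 ratios past 2-fold in the myeloid gate kept its sign under all 15 alternatives, 4 of which were chosen after seeing the data. Some alternatives could not change a sign. These were no CPM minimum, a pseudocount of 1 CPM, and the low counts of *Clec12a* set to 0, since *Clec12a* has none of the 9 ratios. *Clec4d* in WT TAC against WT sham was between 1.71 and 2.45 and *Clec4n* between 0.85 and 1.15, *Clec4e* between 0.36 and 1.46. The 1 member past 2-fold higher in CD3e-/- TAC against CD3e-/- sham became 2 over all kept CD45+ cells (*Clec4a3* was added) and 0 with the mean of single-cell CPM, with an equal weight per class, without the deepest 1% of cells, and without the cells with neutrophil genes or with *Prg4*. For CD3e-/- sham against WT sham 2 members past 2-fold higher became 1 with the mean of single-cell CPM and with an equal weight per class. With a pseudocount of 1 CPM 2 members, *Clec10a* and *Cd209a*, were past 2-fold lower in CD3e-/- TAC against WT TAC instead of 1. With doubled gate limits 1 member, *Cd209a*, was past 2-fold lower in the CD8-depleted group than in WT TAC instead of 0, and 5 members instead of 3 had the same highest class in all 5 groups. The cause of these moves was not tested. TMM factors and median-of-ratios size factors moved no count of members. No paired analysis was possible because each group was 1 sample, and no error between hearts can be given. The read correction limits what can be said of low levels.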

Other observations

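Much of the signal of the dendritic cell lectins lay outside all gates. The 950 kept cells that met no gate held 16.6% of all reads but 41.9% of the reads of *Cd209a* and 25.9% of those of *Clec10a*, while the *Flt3* class, with 6.61% of all reads, held 36.7% and 31.4%. In ungated cells *Cd209a* was at 511, 849, 577, 233 and 399 CPM, lowest in CD3e-/- TAC as in the myeloid gate. These cells had 2602 CPM of the summed macrophage and monocyte markers, against 16091 CPM in the myeloid gate. These markers hold the gating genes *Csf1r* and *Lyz2*, so a difference was set by the gate. The ungated cells were a mixture, with 6364 CPM of the summed mast cell markers and 371 CPM of the summed T cell markers. *Clec4d* held 13.5% of its reads there and *Clec4e* 8.12%.

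*Clec7a* had its highest value in a small class, 1912 CPM (1866 to 1959) in the 24 cells of the *Ly6c2* class of CD3e-/- sham, against 970 CPM in the 20 cells of WT sham and 618, 603 and 549 CPM in the 126 to 141 cells of the TAC groups. A single cell held 19.3% of these reads. In the *Ccr2*-low class of CD3e-/- sham *Clec7a* was at 1066 CPM, against 564 to 629 CPM in the other 4 groups.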
